A study of Xiphophorus maculatus x Xiphophorus hellerii with 32 samples.

Results

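AP1M1 encodes the medium subunit of AP-1, a clathrin adaptor complex. It was followed across the whole series as 1 row of the 20499 in the count table, the row that carries this symbol. The gene was chosen on measured values: it had been picked because its level was higher in tumor in every fish with both tissues and because fish differed strongly. Those 2 features are therefore given below as descriptions without a test. The libraries were 16 of spontaneous melanoma ("tumor") and 16 of skin, all from melanoma-bearing first-generation backcross hybrids of Xiphophorus maculatus and Xiphophorus hellerii aged 9 months. The skin libraries thus also came from fish with melanoma, and fish without one are not analysed here. The 2 tissues came from the same animal in 14 fish. Fish are named by the number and letter of their titles, and the labels do not say what the number stands for.

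AP-1 works at the trans-Golgi network and on endosomes. Its medium subunit, known from mammals and yeast to bind tyrosine-based sorting signals in the tails of membrane proteins, helps gather cargo into clathrin-coated vesicles. In mammalian melanocytes AP-1 takes part in moving pigment enzymes from endosomes to maturing melanosomes, and in many epithelia a second medium subunit, AP1M2, serves sorting to the basolateral side. Xmrk, the oncogene that drives melanoma in this cross, encodes an activated receptor tyrosine kinase of the EGFR family.

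Total counts lay between 2578877 and 6977222 in tumor and between 4239036 and 6673975 in skin. AP1M1 received 127 to 482 reads per tumor library and 85 to 408 per skin library, 8011 in all. Its mean count of 250 per library was above that of 75.7% of the 14542 transcripts that passed the low-count filter. At the lowest and highest of these counts, counting error alone is 10.8% and 4.55% of the value. Levels are given as CPM, the count relative to the TMM-scaled library size (TMM corrects for the composition of each library), and CPM intervals are exact 95% Poisson intervals that cover counting error only.

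AP1M1 stood at 32.7, 55.7 and 81.7 CPM (lowest, median and highest) in the 16 tumors, against 14.8, 26.0 and 66.4 CPM in the 16 skins. Its mean was 55.1 ± 15.3 CPM in tumor and 32.1 ± 15.7 CPM in skin (SD, n = 16 each). The groups overlapped: 11 tumors lay at or below the highest skin, and 6 skins lay at or above the lowest tumor. No tumor, but 10 of the 16 skins, stayed under 30 CPM. The edgeR log2 fold change was 0.78 (SE 0.20), a 1.71-fold difference. This fit, like those by title number below, left out the pairing of the tissues within a fish. These are bulk tissues, in which more cells of a type that expresses the gene and more RNA per cell cannot be told apart.

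**Figure D1:**
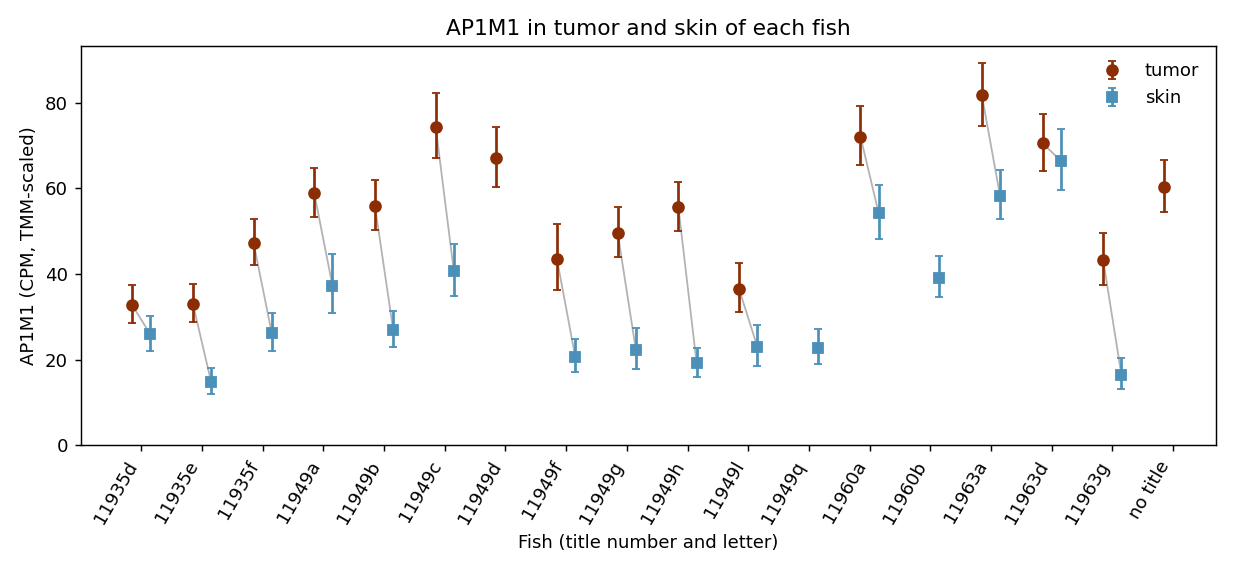
AP1M1 level in CPM (vertical axis) in tumor (circles) and skin (squares) of each fish, with exact 95% Poisson intervals for counting error; grey lines join the 2 tissues of a fish, and "no title" is the tumor library whose column matches no sample title. The tumor point is the upper one in all 14 joined fish, narrowly so in 11963d.

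Within the 14 fish the tumor value was always the higher one. The difference in log2 CPM had a median of 0.85 and ran from 0.09 to 1.52, with an SD of 0.41. Under RLE scaling, with library size alone, without the 10 most abundant transcripts and with a smaller prior count, all 14 of 14 differences also kept this direction. Scaling by library size alone moved every transcript by 0.17 (log2, the mean over the 14 fish) toward tumor. In 12 of the 14 fish the counting intervals of the 2 tissues were separate, and in 2, 11935d and 11963d, they overlapped. Among all 14542 tested transcripts, 961 (6.61%) were higher in tumor in all 14 fish, and edgeR called 1634 (11.2%) higher in tumor at an adjusted p below 0.05. In the 28 paired libraries it called 3394 higher with the fish as a block and 1225 without the block. AP1M1 was chosen from this comparison, so its place among these says nothing further. Its fold change exceeded that of 90.1% of tested transcripts.

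The 2 extremes of the within-fish difference came from unlike starting points. In 11949h AP1M1 stood at 55.5 CPM in tumor and 19.2 CPM in skin, a 2.90-fold difference. In 11963d it stood at 70.5 CPM in tumor and 66.4 CPM in skin, 1.06-fold. The tumors of these fish thus differed far less than their skins. The same was seen over all libraries on the log2 scale. There the SD was 0.42 in tumor and 0.65 in skin, so skin was the more variable by a factor of 1.56. For 94.9% of the tested transcripts that factor was smaller, and its median over all of them was 1.01. In CPM the SDs were close, 15.3 in tumor and 15.7 in skin. The contrast on the log2 scale was noticed in the values and was not tested. The fold and the skin level of a fish share the skin value, so no relation between them was computed.

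The 3 highest skins were 11963d at 66.4, 11963a at 58.3 and 11960a at 54.2 CPM. These fish had 3 of the 4 smallest differences between tissues, with folds of 1.06, 1.40 and 1.33. The remaining one was 11935d, at 32.7 CPM in tumor and 25.9 CPM in skin (1.26-fold). It had the lowest tumor level of the series.

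By title number, the 3 fish of 11935 were low in tumor, with a median of 33.0 CPM against 55.7 CPM over all tumors. In skin their median was 25.9 CPM, against 26.0 CPM over all skins. Their tumors held 32.7, 33.0 and 47.2 CPM in 11935d, 11935e and 11935f, and their skins 25.9, 14.8 and 26.2 CPM. The tumors of 11935d and 11935e were the 2 lowest of the series, and the skin of 11935e was the lowest. The edgeR log2 fold change within 11935 was 0.75 (SE 0.35).

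The fish of 11949 showed the widest gap between the tissues. Their 8 tumors ran from 36.5 (11949l) through a median of 55.7 to 74.4 CPM (11949c), and their 8 skins from 19.2 (11949h) through 22.9 to 40.6 CPM (11949c). Tumor and skin overlapped here only where the lowest tumor lay under the 2 highest skins, 11949c and 11949a at 37.3 CPM. The log2 fold change within 11949 was 1.03 (SE 0.21).

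The 3 fish of 11963 were split. Their tumors held 81.7, 70.5 and 43.2 CPM in 11963a, 11963d and 11963g, and their skins 58.3, 66.4 and 16.4 CPM. Thus 11963a and 11963d held the 2 highest skins of the series and 11963g the second lowest skin. The log2 fold change was 0.49 (SE 0.56), and 11963g had a 2.63-fold difference where 11963d had 1.06-fold. In 11960, 1 tumor stood at 72.1 CPM (11960a) and 2 skins at 54.2 (11960a) and 39.2 CPM (11960b).

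An edgeR interaction term asked if the size of the tumor rise varied by title number, over 11935, 11949 and 11963. Title number was not among the features that chose the gene. The rise in every fish was, and the interaction compares the sizes of that same rise. The test is therefore not independent of the choice. Relative to 11949 the log2 fold change differed by an estimated -0.29 in 11935 and -0.60 in 11963 (unadjusted p = 0.442, adjusted p = 0.99998, edgeR F-test over both terms). That fit left out the pairing of the tissues within a fish. With the fish as a block the estimates were -0.21 and -0.37 (unadjusted p = 0.429, adjusted p = 0.913, edgeR F-test). Neither fit detected a difference, which at this number of fish does not show that there is none. Over all 14568 transcripts the edgeR interaction without the block called 0 (0%), and DESeq2 also called 0. Without the block 84 had an unadjusted p below 0.05, far under the share of 0.05 that chance alone would give. With the block 868 of 14416 did, near that share, and 0 were called. The fit without the block was thus the more conservative one. In the fit with no block, the estimate for 11963 was -1.01 without the skin of 11963g and -0.28 without the skin of 11963d. The edgeR unadjusted p was 0.0773 and 0.761.

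The 4 libraries outside the 14 fish did not enter the within-fish comparison. The tumor of 11949d held 67.0 CPM and the tumor column that matches no title 60.3 CPM, against 39.2 CPM in the skin of 11960b and 22.8 CPM in the skin of 11949q. Both tumors lay above both skins. The unmatched column is named as a tumor of 11960b would be, but the 1 tumor title without a column carries another number with the same letter. Whether this tumor and the skin of 11960b are from the same fish therefore cannot be told from the labels, and it was not tested otherwise. The edgeR log2 fold change between the tumors and the skins of all 4 libraries was 1.04 (SE 0.48).

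Fish differed in AP1M1 in both tissues together. The mean of the 2 tissues of a fish, in log2 CPM, was highest in 11963a (6.12) and 11963d (6.10) and lowest in 11935e (4.49), a span of 1.62 or 3.08-fold. Fish high in one tissue tended to be high in the other: across the 14 fish, skin and tumor log2 CPM had a Pearson r of 0.814, which is part of what chose the gene. The median over all tested transcripts was 0.711.

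The span of AP1M1 was nonetheless not wide for this series. The median span over all 14542 tested transcripts was 2.12, and only 28.02% of them had a smaller one. Among the 4433 transcripts with a mean count within 2-fold of AP1M1, the median was 1.96 and 33.3% were smaller. Of the variance of AP1M1 in the paired libraries, 55.3% lay between fish, 36.3% between tissues and 8.37% in the remainder. The medians over all tested transcripts were 75.5%, 6.03% and 12.9%. Set beside the typical transcript, AP1M1 thus had more of its variance between tissues and less between fish. The choice of the gene bears on this: a higher tumor level in every fish raises the share between tissues. A larger share there also leaves less for the others, so the contrast is a description only.

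**Figure D2:**
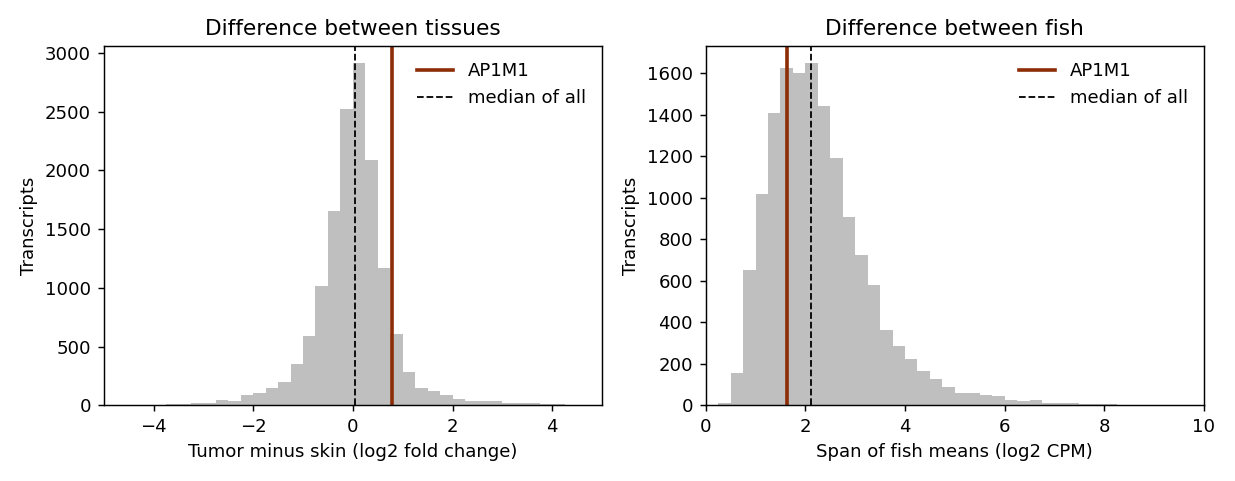
Distributions over all 14542 tested transcripts of the edgeR log2 fold change, tumor minus skin (left, log2 units), and of the span of the 14 fish means (right, log2 CPM), with the number of transcripts on the vertical axes, AP1M1 as a solid line and the median as a dashed line. AP1M1 lies to the right of the median for the tissue difference (0.78 against 0.04) and to the left of it for the span between fish (1.62 against 2.12).

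AP1M1 was then set against Xmrk. This relation is not among the values that chose the gene. The differences of AP1M1 between fish and between tissues are, and they enter each relation, so the tests are not fully independent of the choice. Xmrk, the other 18 tested rows that have a symbol and the total count of the library made 60 relations, in tumor, in skin and in the difference within a fish. Their two-sided permutation p values, from 100000 resamples, were adjusted over all 60 by the Benjamini-Hochberg method.

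In tumor, Xmrk ranged from 130 to 1162 CPM, and its relation to AP1M1 did not pass the threshold (n = 16, r = 0.485, permutation p = 0.0551, adjusted p = 0.236; Spearman rho = 0.306, p = 0.2503). It rested on the tumors of 11935d and 11935e, the 2 lowest for both genes: without them r was -0.0755. Within 11949 it was 0.124 (n = 8, exact permutation p = 0.771).

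In skin, Xmrk ranged from 25.7 to 110 CPM, and the relation to AP1M1 was positive (n = 16, r = 0.625, permutation p = 0.00947; rho = 0.682, p = 0.00463). The adjusted p was 0.0631 for r and 0.0463 for rho, so the 2 measures fell on different sides of 0.05. Both genes were highest in the skins of 11963d and 11963a. Without the 2 skins farthest from the median of Xmrk, 11935f and 11949l, r was 0.777 (adjusted p = 0.0260, permutation). Within 11949 r was 0.645 (n = 8, exact permutation p = 0.0908, adjusted p = 0.239). As deviations from the means of the title numbers it was 0.485 (permutation p = 0.0974, adjusted p = 0.278). Neither passed the threshold. The other title numbers held too few skins for a value of their own.

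For the differences within a fish, Xmrk was higher in tumor by 0.81 to 4.45 on the log2 scale. The relation of its difference to that of AP1M1 did not pass the threshold (n = 14, r = 0.440, permutation p = 0.116, adjusted p = 0.329; rho = 0.530, p = 0.0543). Fish 11949h had the largest difference of both genes. Fish 11949l had the second largest fold for Xmrk but the ninth for AP1M1. Without 11935d and 11935e, the 2 fish farthest from the median of Xmrk, r was 0.505, and within 11949 it was 0.331 (n = 7, exact permutation p = 0.471).

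**Figure D3:**
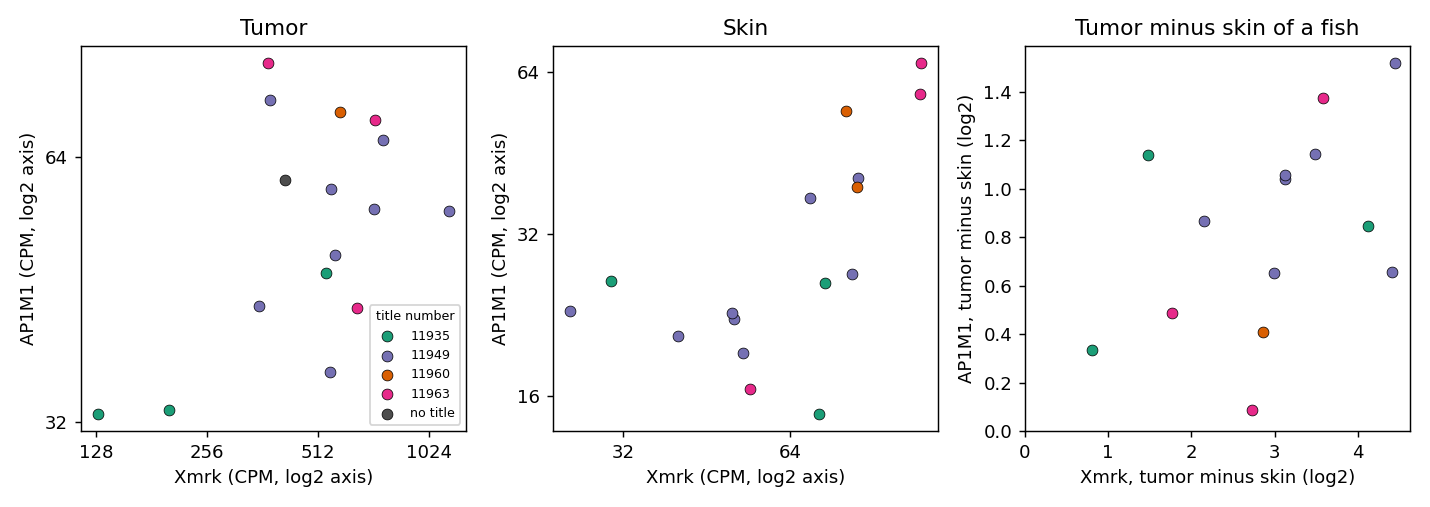
AP1M1 against Xmrk in the 16 tumors (left) and 16 skins (middle), both in CPM on log2 axes, and as tumor minus skin differences of the 14 fish (right, log2), coloured by title number. The 2 tumors at the lower left are 11935d and 11935e, and the 2 skins at the upper right are 11963a and 11963d.

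Of the 60 relations, 6 passed an adjusted p of 0.05 for Pearson's r, 3 in tumor and 3 in skin, and 0 of the 20 differences did. The unadjusted permutation p was below 0.05 for 3 of 20 in tumor, 9 of 20 in skin and 1 of the differences. How many of all tested transcripts would pass was not computed. The 6 rows are therefore not shown to follow AP1M1 more closely than other transcripts do. GSTM3, a glutathione S-transferase, had the highest r in tumor (n = 16, r = 0.790, adjusted p = 0.0108; rho = 0.768, permutation). CSNK1A1, a casein kinase that marks beta-catenin for destruction in the Wnt pathway, was related to AP1M1 in both tissues, with r = 0.732 in tumor and 0.709 in skin (adjusted p = 0.0276 for both, permutation, n = 16 each; rho = 0.821 and 0.738). In skin GSTM3 had r = 0.662, which did not pass (n = 16, adjusted p = 0.0537, permutation). The tissues came from the same animal in 14 fish, so the values for tumor and skin are not independent. For the differences within a fish, r was 0.236 for both CSNK1A1 and GSTM3 (n = 14, permutation p = 0.434 and 0.415). Across the means of 14 fish, CSNK1A1 (r = 0.829) and GSTM3 (r = 0.789) had the highest r with AP1M1. That ranking was among the 15 other rows with a symbol and a mean count of at least 50. Fish means are built from the same tumor and skin values, so it adds no separate support.

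CHD4_2of2, a copy of a chromatin remodelling ATPase, ran opposite to AP1M1 in tumor (n = 16, r = -0.681, adjusted p = 0.0481, permutation; rho = -0.703). This call was lost under RLE scaling (r = -0.659, adjusted p = 0.0579, permutation) and with library size as the only scaling (r = -0.602, adjusted p = 0.0767). In skin the r of CHD4_2of2 was -0.636, which did not pass (n = 16, adjusted p = 0.0631, permutation). OXR1, a gene of oxidation resistance, ran opposite to AP1M1 in skin (n = 16, r = -0.698, adjusted p = 0.0276, rho = -0.779, permutation). With library size as the only scaling the OXR1 r was -0.422 (adjusted p = 0.290, permutation), while its rho there was -0.688 (adjusted p = 0.0381). The TMM factors of the skins lay between 0.741 and 1.13. CALR3_1of2, a calreticulin copy, was related to AP1M1 in skin by r (n = 16, r = 0.6999, adjusted p = 0.0276, permutation) but not by rank (rho = 0.441, adjusted p = 0.242).

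These relations differed in how far they rested on a few libraries. Without the 2 libraries farthest from the median of the other gene, r was 0.615 for GSTM3, 0.684 for CSNK1A1 and -0.669 for CHD4_2of2 in tumor, and 0.771 for CSNK1A1, -0.821 for OXR1 and 0.518 for CALR3_1of2 in skin. The adjusted p then stayed under 0.05 for CSNK1A1 and OXR1 in skin (0.0260 each, permutation) and was between 0.0908 and 0.271 for the others. Within 11949 (n = 8), the r values were 0.864 for GSTM3, 0.809 for CSNK1A1 and -0.888 for CHD4_2of2 in tumor, with exact permutation p of 0.00635, 0.0155 and 0.00419. In the skins of 11949 they were 0.777 for CSNK1A1, -0.776 for OXR1 and 0.134 for CALR3_1of2, with exact permutation p of 0.0175, 0.0245 and 0.784. Within the largest title number 5 of the 6 were thus at least as large as over all libraries, and CALR3_1of2 was smaller. The 6 were picked because they passed over libraries that include those of 11949, so these values add no separate support. After adjustment over the 60 relations within 11949, none of the 6 passed, and 1 other did: PRKCB, a protein kinase C gene, in skin (n = 8, r = -0.935, adjusted p = 0.0298, exact permutation). Over all 16 skins its r was -0.444 (adjusted p = 0.291, permutation). As deviations from the means of the title numbers, GSTM3 in tumor kept its call (r = 0.703, adjusted p = 0.0240, permutation) and the other 5 lost theirs. The r values there were 0.779 for CSNK1A1 and -0.810 for CHD4_2of2 in tumor, and 0.710 for CSNK1A1, -0.690 for OXR1 and 0.634 for CALR3_1of2 in skin. Their adjusted permutation p lay between 0.0525 and 0.0597 for all but CALR3_1of2, which had 0.278.

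The relation of AP1M1 in tumor to the total count of the library turned on 1 library. With all 16 tumors r was -0.0960 (permutation p = 0.753, adjusted p = 0.853) and rho was -0.541 (p = 0.0319, adjusted p = 0.157). Without 11949f, the shallowest tumor, r was -0.732 (n = 15, adjusted p = 0.0304, permutation) and rho was -0.696 (adjusted p = 0.0543). Among these 15 the deeper libraries thus had lower AP1M1. The deepest tumors, 11935e and 11935d, were also the lowest for AP1M1, so depth and title number are mixed here. With 11949f kept, r was 0.241 within 11949 (rho = -0.238, n = 8). As deviations from the means of the title numbers, also with 11949f kept, it was 0.0884 (rho = -0.270, n = 14). These values therefore cannot show if the relation seen without 11949f holds within a title number, which was not tested. The tumor relations of GSTM3, CSNK1A1 and CHD4_2of2 kept their calls without 11949f, and the part of depth in them was not tested. In skin the relation to depth had r = -0.185 (n = 16, adjusted p = 0.674, permutation).

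**Figure D4:**
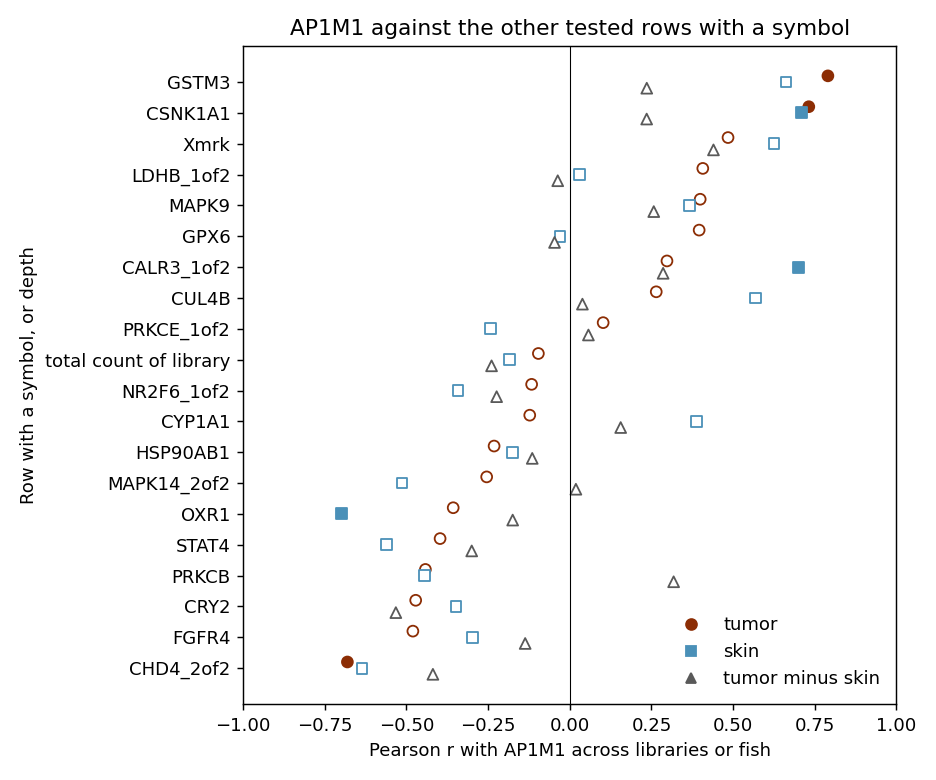
Pearson r of AP1M1 (horizontal axis) with each other tested row that has a symbol and with the total count of the library, across 16 tumors (circles), 16 skins (squares) and 14 tumor minus skin differences (triangles); filled points had an adjusted permutation p below 0.05. The 6 filled points are GSTM3, CSNK1A1 and CHD4_2of2 in tumor and CSNK1A1, OXR1 and CALR3_1of2 in skin.

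The pattern of AP1M1 was also compared with every transcript of mean count at least 50, 10124 in number, as a description without a test. The files do not pair these identifiers with gene names. Across fish means, 221 transcripts reached an r of 0.8, and the closest was ENSXMAT00000016840 (r = 0.966, 14 fish), which was higher in tumor in 13 of 14 fish. The most opposite were ENSXMAT00000019068 (r = -0.925) and ENSXMAT00000017602 (r = -0.922), with log2 fold changes of -0.88 (SE 0.42) and -0.86 (SE 0.31).

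Across the tumor minus skin differences only 5 transcripts reached an r of 0.8. One stood out: ENSXMAT00000000641, with r = 0.950 for the differences, the highest of all, and r = 0.958 for the fish means, the second highest. It averaged 93.7 ± 29.2 CPM in tumor and 51.1 ± 23.2 CPM in skin (SD, n = 16 each), a 1.84-fold difference by edgeR. Its raw count divided by that of AP1M1, a ratio free of any scaling, lay between 1.41 and 2.11 in tumor (median 1.71) and between 1.31 and 1.94 in skin (median 1.61). Over all 32 libraries the SD of the log2 ratio was 0.18, the smallest of the 10124 transcripts, where the next smallest was 0.28 and the median 1.005. Independent counting error at these counts would give 0.13. Whether the 2 rows share reads or belong to the same gene was not tested.

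**Figure D5:**
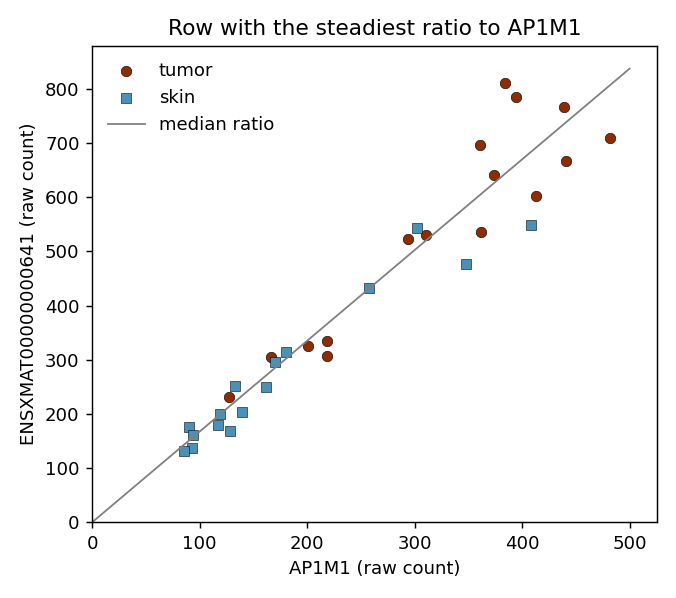
Raw count of ENSXMAT00000000641 (vertical axis) against the raw count of AP1M1 (horizontal axis) in 16 tumors (circles) and 16 skins (squares), with a line at the median ratio over the 32 libraries. Tumors and skins lie along the same line, with ratios from 1.41 to 2.11 in tumor and from 1.31 to 1.94 in skin.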

How the data were processed

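The authors deposited 1 table of raw read counts by transcript for 32 libraries. Alignment used GSNAP according to the submitters' processing notes. Its version, the build, annotation, counter, strand handling and treatment of reads that match both parental species are not stated there or in the labels. Columns were matched to sample titles, and 1 tumor column that matches no title was used without a fish. Tumor and skin were compared with edgeR 4.0.16 (quasi-likelihood) in R 4.3.3 (TMM, filterByExpr, no block, Benjamini-Hochberg adjustment). Each SE was derived from the log2 fold change and the edgeR F value. The fit was also run on simulated counts with known changes but no differences between fish, so that run does not cover the pairing. Pairing comes from the titles: deviations from the tissue mean correlated at 0.421 to 0.774 within fish and -0.341 to 0.338 between fish. Relations used log2 CPM with a prior count of 2. Each fish counts as 1 animal, as its title names it. Alternatives included DESeq2 1.42.0. Figures were drawn with matplotlib 3.10.9.

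The gene, the lists and the tests were chosen with earlier results of these data known. Named are AP1M1, Xmrk, the other tested rows with a symbol in the relations, and the identifiers most and least like AP1M1. The rule covered the 5 identifiers most like AP1M1 over fish means and over differences and the 3 least like it over fish means, of which 4 in all are printed because they carry no gene name. Of 137 symbols in 11 lists (adaptor complexes, clathrin partners, cargo, melanosome sorting, and markers of pigment, epidermal, dermal, muscle, immune and blood cells), 0 matched a row by symbol, so neither pathway members nor tissue markers could be described.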

Additional observations from a re-analysis of the deposited data

Results flagged for a closer look

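Libraries far from the rest of their group were looked for in 8 sets of values within 11949, where chance alone gives about 0.4, and 1 was found. It was 11949f in tumor, with 2578877 reads in total, set well below 4938279 reads in 11949c, its nearest neighbour. AP1M1 in that tumor rested on 127 reads, 43.4 CPM with a 95% Poisson interval of 36.2 to 51.6. Without this tumor the relation of AP1M1 to total count over the tumors had r = -0.732, against -0.0960 with it. Without it the log2 fold change of AP1M1 between tumor and skin was 0.80, against 0.78 with it.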

How the results depend on the processing

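The log2 fold change of AP1M1 between tumor and skin ran from 0.49 to 1.04 over 14 alternatives and stayed within 1 SD of the within-fish differences in all of them. With the fish as a replicate block it was 0.81 (SE 0.11), and over all transcripts 3394 were called higher in tumor with the block, against 1225 in the same 28 libraries without it and 1634 in all 32. The span between fish ran from 1.62 to 1.66 over 4 alternatives and was 1.86 with library size as the only scaling. The interaction with title number stayed above the threshold in all 16 alternatives, with an adjusted p of 0.913 under the replicate block (edgeR F-test). No transcript was called in any of these fits, so this says little about AP1M1 itself. Its unadjusted p ran from 0.0773 to 0.761 (edgeR F-test at both ends). For Xmrk in skin, r passed the threshold at 0.686 with library size as the only scaling and at 0.777 without the 2 farthest skins. For Xmrk in tumor, r was reversed at -0.0755 without the 2 farthest tumors, by their removal alone. Of the alternatives for the 6 other relations, added after the data were seen, 33 kept the call and 18 lost it, and 0 reversed. Taken as deviations from title number means, 5 of the 6 lost it. The settings within 11949 and without the farthest libraries hold fewer samples. Calls were also lost with all libraries kept, as for CHD4_2of2 in tumor under RLE scaling and OXR1 in skin with library size only. The cause was not tested. The count of called members of the adaptor and clathrin lists could not be run, because 0 members matched. Counts of 85 to 482 per library leave a counting error of up to 10.8% in each AP1M1 value.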

Other observations

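Other rows with a symbol also had a partner transcript at a steady ratio. For each of the 16 such rows with a mean count of at least 50, the transcript with the smallest SD of the log2 ratio of raw counts over the 32 libraries was looked up. That SD was below 0.25 in 14 of the 16 rows, with a median of 0.14, and 6 rows had a looser partner than AP1M1. The tightest was that of HSP90AB1, a cytosolic chaperone, at 0.022. In 4 rows, CRY2, GPX6, OXR1 and PRKCE_1of2, it lay below what independent counting error would give (for CRY2, a circadian repressor, 0.086 against 0.24). The row of FGFR4, a growth factor receptor, was the loosest at 0.51. Whether rows with a symbol and their partners count the same reads was not tested, and levels of rows with a symbol, AP1M1 included, are subject to that limit.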
